A study of Arabidopsis thaliana with 12 samples.

Results

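Lowering of histone H3.3 and loss of histone H2A.Z were each followed alone and together in warm-grown seedlings of Arabidopsis thaliana, and the genes taken up here are those whose transcript level in the line with both changes was not the sum of the 2 single changes. All 12 libraries of the series entered, 3 from each of 4 genotypes: h3.3kd;h2a.z, h2a.z, h3.3kd and Col, the wild type. Per the labels the plants were 7-day-old whole seedlings, raised at 21 °C in short days and kept at 27 °C for 12 h. The genotype field gives h3.3kd-1 for the lowered H3.3, both alone and in h3.3kd;h2a.z, which is called the combined line here. The labels name no allele, and 1 line stands for each mutant genotype. No library from plants left at 21 °C was analysed here, so each comparison is between genotypes held in warmth. The sources used here do not say whether the replicates were separate cultures, and p-values measure only the spread between these samples.

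Nucleosomes wrap DNA around a core of histones, and histone variants replace the standard forms in part of them. H3.3 takes the place of H3 mainly along transcribed genes, where it is deposited outside of DNA replication. H2A.Z takes the place of H2A at the start of many genes and across the bodies of genes with low or condition-dependent expression, and in Arabidopsis its occupancy falls when seedlings are moved to warmth.

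The 2-by-2 design gives 2 readings of each change. The H3.3 effect can be read in h2a.z plants (h3.3kd;h2a.z minus h2a.z) and in plants with normal H2A.Z (h3.3kd minus Col). The difference between these 2 effects is the interaction, taken on log2(TPM + 1), where TPM is an abundance scaled to transcript length and to the same total in every library. An interaction of 0 means that the fold changes of the single lines multiply in the combined line. A positive value, called higher here, means that the combined line stood above that expectation, and a negative value, called lower, that it stood below. Adding 1 to each TPM makes the scale understate fold changes of genes with low TPM. Of 23387 genes in the table, 19937 were tested, namely those reaching 1 TPM in 3 libraries or more.

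Between 19590 and 22019 genes were above 0 in a library, and TPM keeps no record of sequencing depth, so the depth is unknown. Deviation from the genotype mean was greatest in h3.3kd 2 (root mean square 0.405 on the log2 scale, with 0.183 to 0.324 elsewhere). Genes of the chloroplast genome took 0.587% of TPM in that library and 0.171% to 0.347% elsewhere. Results that turn on it are given without it as well.

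The H3.3 genes AT4G40030, AT4G40040 and AT5G10980 (HTR4, HTR5 and HTR8) and the H2A.Z genes HTA8, HTA9 and HTA11 check the labels, and the interaction was called in 1 of these 6 (16.7%). HTR8 had 8.56, 8.98 and 8.12 TPM in h3.3kd;h2a.z, 165.7, 156.4 and 181.9 in h2a.z, 9.28, 12.1 and 11.9 in h3.3kd, and 297, 200.4 and 222 in Col. HTA8 was between 0 and 0.0692 TPM in the 6 libraries of h3.3kd;h2a.z and h2a.z, against 6.72 to 11.4 in h3.3kd and 13.4 to 17.5 in Col. The called gene was HTA9, the most abundant of the H2A.Z transcripts in Col. Against Col, HTR5 averaged 302.2 TPM in h2a.z and 478.3 in Col (limma adjusted p = 0.014). HTR8 was also called lower in h2a.z (adjusted p = 0.045), and HTR4 was not called. In h3.3kd HTA8 was called lower than in Col (adjusted p = 0.040), and HTA9 and HTA11 were not called. Normal H3.3 and normal H2A.Z thus mean here that the histone was not targeted in that line.

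HTA9 had 91.9, 77.1 and 92.7 TPM in h3.3kd;h2a.z, against 31.3, 34.4 and 30.5 TPM in h2a.z. It had 273.4, 136.2 and 227.5 TPM in h3.3kd, against 324.7, 211.4 and 227.8 TPM in Col. The combined line and h2a.z did not overlap each other or the lines with normal H2A.Z, and the combined line held more of the HTA9 transcript than h2a.z did. The interaction was 1.71 ± 0.31 (standard error, limma adjusted p = 0.0073), a call that ended on the square root of TPM (adjusted p = 0.0896; 7.55e-05 to 1 over all settings). HTA11 had 4.07, 3.72 and 4.62 TPM in h3.3kd;h2a.z, 1.59, 2.97 and 3.19 in h2a.z, 48.8, 33.7 and 29.9 in h3.3kd, and 64.2, 41.8 and 32.8 in Col, with an interaction that was not called (0.82 ± 0.37, adjusted p = 0.33). Both transcripts were thus higher in each combined library than in each h2a.z library, and their part in the results that follow was not tested.

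Across all tested genes, 496 were called for the interaction at a limma adjusted p under 0.05, which is 2.49% of them. Of these, 127 (0.637%) were higher and 369 (1.85%) were lower. The interaction reached 1 or more in size on the log2 scale for 112 of the higher and 347 of the lower genes, and 2 or more for 39 and 132. At an unadjusted p under 0.05 there were 2792 genes (14.0%). The number of higher genes rested on single libraries: leaving out replicate 1 or 3 of the combined line gave 72 or 81, replicate 2 or 3 of h2a.z gave 77 or 83, and h3.3kd 2 gave 208. The number of lower genes was 214 or 240 when replicate 1 or 3 of the combined line was left out, 226 or 233 with replicate 2 or 3 of h2a.z left out, 239 with h3.3kd 3 left out and 240 with Col 2 left out. Same-numbered libraries of h3.3kd and Col deviated together, and with the replicate number as a block of those 2 genotypes 229 genes were higher and 611 lower, an alternative chosen after seeing the data. With each library left out in turn, 67 of the 127 higher calls and 180 of the 369 lower calls held in all 12 fits. Genes described below with an adjusted p are among these unless stated.

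Fewer genes were called for the loss of H2A.Z where H3.3 was low. It changed 848 genes in the h3.3kd background (4.25% of those tested; h3.3kd;h2a.z minus h3.3kd), of which 484 rose (2.43%) and 364 fell (1.83%). In the background with normal H3.3 it changed 3009 genes (15.1%; h2a.z minus Col), of which 2100 rose (10.5%) and 909 fell (4.56%). The 2 contrasts share no library and have the same standard error for each gene. They shared 530 genes called in the same direction, 62.5% of the 848 and 17.6% of the 3009, and 6 were called in opposite directions. The root mean square change over all tested genes was 0.439 on the log2 scale in the h3.3kd background and 0.64 in the other. The count in the h3.3kd background was 492, 421 or 468 when replicate 1, 2 or 3 of the combined line was left out, and 1545 when h3.3kd 2 was. With the replicate block of h3.3kd and Col it was 1414, against 4061 in the background with normal H3.3. With array weights, which give noisy libraries less influence and whose fit did not fully converge, the counts were 5471 in the h3.3kd background and 5516 in the other, so the gap between the counts depended on how libraries were weighted.

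Lowering of H3.3 was called in more genes in h2a.z plants. It changed 4916 genes in h2a.z plants (24.7%), of which 1065 rose (5.34%) and 3851 fell (19.3%), and 3450 in plants with normal H2A.Z (17.3%), of which 1079 rose (5.41%) and 2371 fell (11.9%). They shared 1939 genes called in the same direction, 39.4% of the 4916 and 56.2% of the 3450. Another 35 were called in opposite directions. The count of 3450 was 2177 without Col 1. Against Col, the combined line differed in 3738 genes (18.7%), of which 1230 rose (6.17%) and 2508 fell (12.6%). The plot of the H2A.Z effect in both backgrounds shows where the called genes lie.

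**Figure D1:**
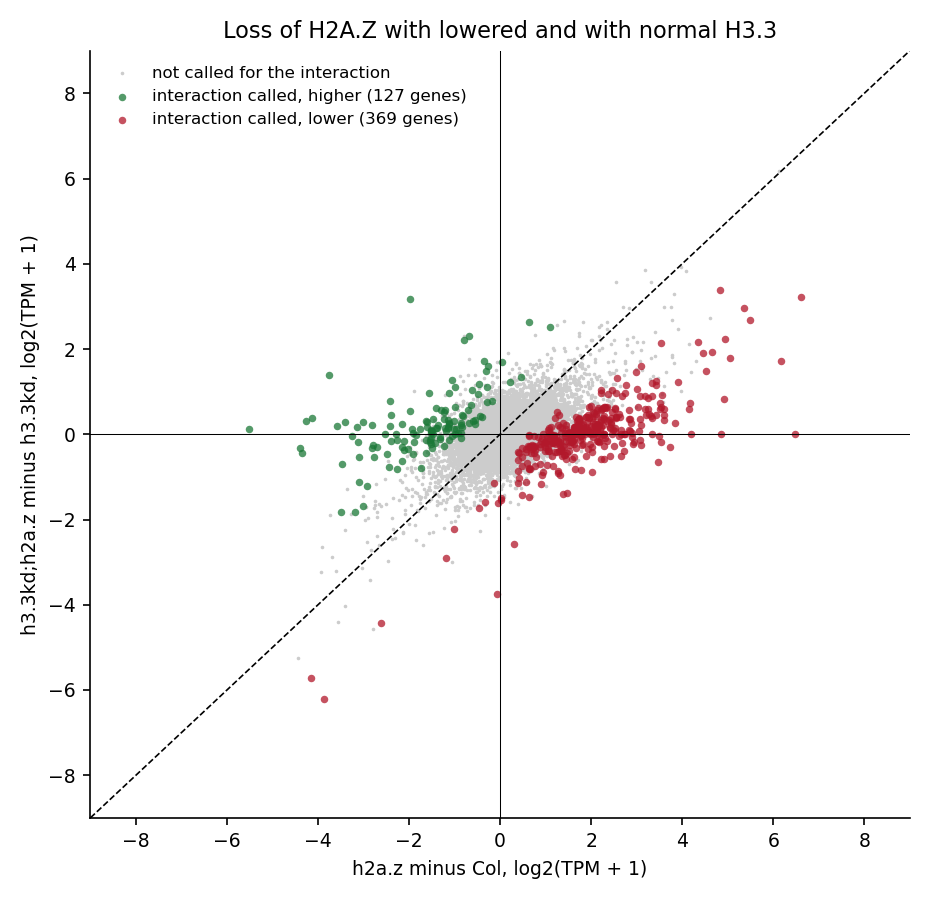
Change on loss of H2A.Z for each of 19937 genes: h3.3kd;h2a.z minus h3.3kd on the vertical axis and h2a.z minus Col on the horizontal axis, both in log2(TPM + 1), with the dashed line marking equal effects. Most of the 369 lower calls (red) lie to the right, near 0 on the vertical axis, and most of the 127 higher calls (green) lie to the left.

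The called genes were sorted by what the single lines did. In 323 of the 496 (65.1%) the h2a.z line was changed against Col, h3.3kd was not, and the interaction ran against the h2a.z change. In 84 (16.9%) both single lines changed in the same direction and the interaction ran against it, and in 40 (8.06%) the single lines changed in opposite directions. In 23 the change of h3.3kd was the one reduced, in 14 the combined line went further than the single changes multiplied, 7 were changed in the combined line alone, and 5 were none of these. In all, 454 of the 496 (91.5%) were called in h2a.z against Col, 156 (31.5%) in h3.3kd against Col and 170 (34.3%) in the combined line against Col. These contrasts share the Col libraries, and the shares are a description of the calls.

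A level near 0 in Col limits what an interaction can mean, because a transcript near 0 in Col has no room to fall when H3.3 is lowered. Of 1052 genes with a mean Col TPM under 1, 156 were called (14.8%), 155 of them lower. Of those 155, 148 had their highest mean in h2a.z, and 28 were listed at 0 in all 3 Col libraries. Of 15356 genes with a mean Col TPM of 5 or more, 238 were called (1.55%): 98 higher (0.638%) and 140 lower (0.912%). Between these levels 102 of 3529 were called (2.89%), 28 higher (0.793%) and 74 lower (2.1%). The class was set on Col values that are part of the interaction, so no test was made between classes. Genes under 1 TPM in Col also could not pass the filter on the Col libraries alone. Each had to reach 1 TPM in a mutant line to be tested, so the 14.8% and the 148 rest in part on the filter. A second floor applies to losses. In 186 genes the single changes added up, on the log2(TPM + 1) scale, to a TPM under 0, which no transcript can reach, and 29 of them were called (15.6%), each higher.

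Most well expressed called genes had the same sign when differences in TPM were added in place of multiplying folds, 96 of the 98 higher and 137 of the 140 lower. In the genes with a mean Col TPM of 5 or more, the reduced h2a.z change was again the largest pattern, with 70 lower and 54 higher genes. The combined line was within 2-fold of Col in 66 of those 70 (94.3%) and 49 of those 54 (90.7%). Over all tested genes, 9.26% differed by 2-fold or more between the combined line and Col. The shares within 2-fold are thus near that of all genes and are no result about these genes. Counts in this class also moved with single libraries. The 140 lower genes became 62 or 74 on leaving out replicate 1 or 3 of the combined line, 65 for either replicate 2 or 3 of h2a.z, 291 or 69 for replicate 1 or 3 of h3.3kd, and 78 for Col 2. The 98 higher genes became 58 or 64 on leaving out replicate 1 or 3 of the combined line, 64 for h2a.z 2, and 184 for h3.3kd 2. The 155 lower genes under 1 TPM in Col became 103 on leaving out replicate 1 of the combined line.

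**Figure D2:**
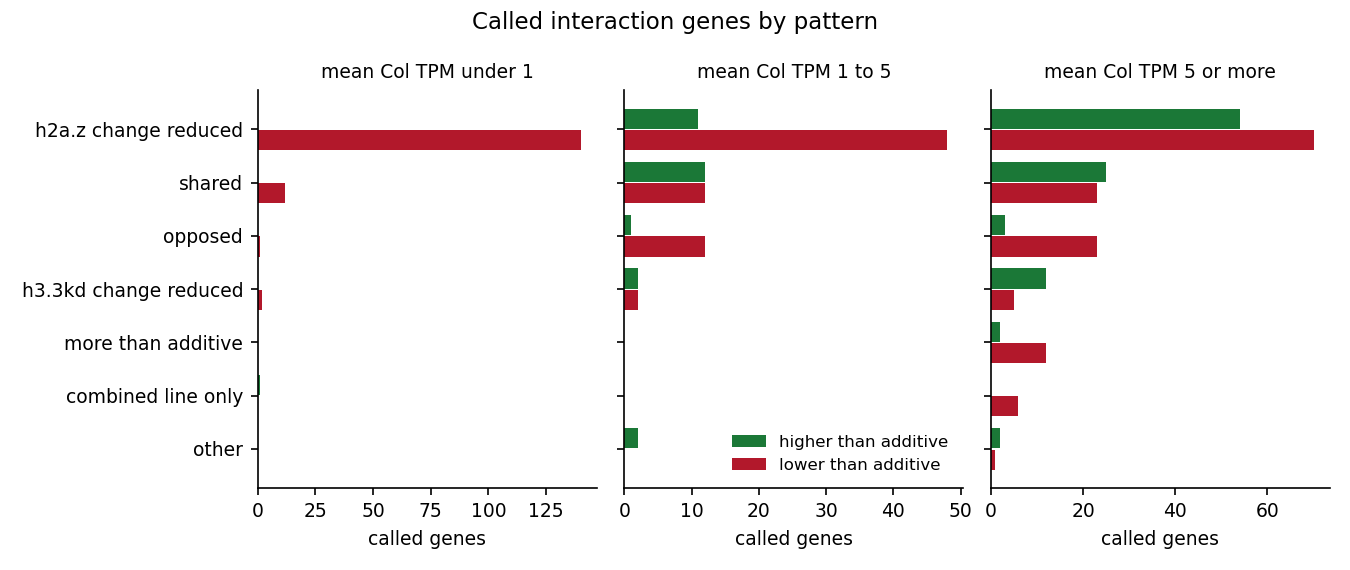
Number of called genes in each pattern, by mean Col TPM, with genes above the additive expectation in green and below it in red; the horizontal scales differ between panels. The reduced h2a.z change is the longest bar in all 3 panels, and under 1 TPM in Col it holds 140 of the 156 called genes.

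Genes of the jasmonate and ethylene defence response, which protects against chewing insects and fungi that kill their host, held the highest share of calls among 20 gene lists. The lists were chosen with earlier results of these data known, so this rank is only a description. Most of the listed jasmonate and ethylene genes rose in h2a.z, and most were not called against Col in the combined line. Of 18 listed genes tested, 11 (61.1%) were called lower and none higher, with a median interaction of -2.08 against -0.043 over all tested genes. All 18 values were negative, from -4.85 to -0.35. In h2a.z against Col 13 of the 18 rose and 1 fell, while 10.5% of all tested genes rose and 4.56% fell. In the combined line against h2a.z 16 fell, as did 19.3% of all tested genes. In the combined line against Col 1 fell and none rose. That contrast was called in 18.7% of all tested genes, so the lack of calls there is no result about these genes. Of the 11 called, 7 had a mean Col TPM under 1. NATA1, TAT3, PDF1.2A, PDF1.2B, PDF1.2C and PDF1.3 were under 1 TPM in every library outside h2a.z. They were thus tested only because of their level in h2a.z. The share called, the signs and the median rest in part on that and are a description. The count of 11 ranged from 8 to 13 with single libraries left out.

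NATA1, which acetylates ornithine in a jasmonate-induced defence pathway, was listed at 0 TPM in all 3 libraries of h3.3kd;h2a.z, and stood at 13.5, 24.4 and 63.5 TPM in h2a.z. It was also listed at 0 in all libraries of h3.3kd and of Col. The transcript was thus detected in h2a.z alone, with the libraries of that genotype differing among themselves, and no fold is given against groups at 0 (interaction adjusted p = 0.00019). The defensin gene PDF1.2A had the same form. It was listed at 0 in all libraries of h3.3kd;h2a.z, and had 12.6, 21.5 and 19.4 TPM in h2a.z, with 0 again in all libraries of h3.3kd and Col (adjusted p = 5.5e-06). PDF1.2C, PDF1.2B and PDF1.3 averaged 9.50, 5.64 and 5.91 TPM in h2a.z and were listed at 0 in every other library. These defensins are near-identical copies between which reads can be shared, so their separate levels are uncertain.

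ORA59, the transcription factor that switches on PDF1.2, showed the same form. It had 0.112, 0.776 and 0.109 TPM in h3.3kd;h2a.z and 12.7, 12.7 and 11.6 in h2a.z. It had 0.376, 0 and 1.29 in h3.3kd and 0.794, 1.59 and 0.0989 in Col. The h2a.z libraries stood above the other 9, which overlapped (interaction -3.12 ± 0.49, adjusted p = 0.0029; 1.79e-05 to 0.142 over the settings). TAT3, a tyrosine aminotransferase, averaged 12.2 TPM in h2a.z, and was between 0 and 0.274 in the other 9 libraries (adjusted p = 0.0015).

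Of the 8 listed genes tested that had a mean Col TPM of 5 or more, 2 (JAZ1 and AOC2) were called lower. CHIB, a basic chitinase, and HEL, a hevein-like protein, rose in h2a.z against Col, but their interactions were not called (-0.44, adjusted p = 0.695, and -1.45, adjusted p = 0.09, by limma). LOX2, AOS and OPR3, enzymes of jasmonate synthesis, and the storage protein gene VSP2 were called neither in h2a.z against Col nor for the interaction. LOX2 averaged 37.7 TPM in h3.3kd;h2a.z, 71.5 in h2a.z, 81.9 in h3.3kd and 62.6 in Col. JAZ1, a repressor of jasmonate signalling that is itself jasmonate-induced, had 6.63, 10.6 and 11.1 TPM in h3.3kd;h2a.z and 36.1, 34.5 and 45.5 in h2a.z. It had 7.23, 16.3 and 12.9 TPM in h3.3kd and 8.32, 7.76 and 10.3 in Col. Only the h2a.z libraries stood apart, and the other 3 genotypes overlapped. JAZ1 was 2.02 ± 0.26 higher in h2a.z than in Col on the log2 scale (adjusted p = 9.2e-05), and the interaction was -2.31 ± 0.36 (adjusted p = 0.0031).

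AOC1, an allene oxide cyclase of jasmonate synthesis, had 3.75, 2.78 and 3.94 TPM in h3.3kd;h2a.z and 32, 16.5 and 30.5 in h2a.z. It had 4.39, 8.46 and 8.41 in h3.3kd and 6.84, 8.78 and 6.68 in Col. The combined line lay below each library of the other 3 genotypes (interaction -2.46 ± 0.39, adjusted p = 0.0031). Multiplying the single folds gave an expectation of 23.5 TPM for it. Its neighbours AOC2 and AOC3 are near-identical to it, so their separate levels are uncertain. AOC3 was also called lower and averaged 3.35 TPM in h3.3kd;h2a.z, 27.9 in h2a.z, 3.16 in h3.3kd and 7.24 in Col. AOC2 differed in form: it averaged 5.36 TPM in h3.3kd;h2a.z, 39.9 in h2a.z, 47.6 in h3.3kd and 91.2 in Col, so both single lines fell and the combined line stood lowest (-1.71, adjusted p = 0.0187). With differences in TPM added, the sign of AOC2 was opposite. With each library left out in turn, the call of AOC2 held in 8 of 12 fits and that of AOC3 in 1. The chlorophyllase CLH1 had 16.3 to 18.3 TPM in h3.3kd;h2a.z, 73.1 to 99.2 in h2a.z, 13.7 to 14.2 in h3.3kd and 11.3 to 17.4 in Col (-2.15 ± 0.24, adjusted p = 0.00017).

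Marker genes of organs that whole seedlings could hold in differing amounts moved as well. Root markers summed to 140.9 to 152 TPM in h3.3kd;h2a.z, 274.7 to 308.5 in h2a.z, 101.7 to 205.9 in h3.3kd and 224.3 to 322.1 in Col. Photosynthesis genes, taken as markers of green tissue, summed to 90270 to 93720 TPM in h3.3kd;h2a.z and 66670 to 70760 in h2a.z. They summed to 66180 to 110300 TPM in h3.3kd and 77750 to 88240 in Col. By this sum the combined line lay above Col and h2a.z below it, while h3.3kd spanned them all. Seed and embryo markers summed to 354 to 839.5 TPM in h3.3kd;h2a.z, 192.2 to 253.6 in h2a.z, 333.2 to 552 in h3.3kd and 153.1 to 252.8 in Col. The sum hides opposite changes in h2a.z, where 5 of the 19 seed markers tested rose and 4 fell against Col. The seed gene CRC averaged 37.5 TPM in h2a.z and 0.0321 in Col, and LEA18 averaged 12.8 and 134.4. Against Col, 9 rose and 0 fell in h3.3kd, and 12 rose and 1 fell in the combined line. Of all tested genes, 10.5% rose and 4.56% fell in h2a.z, and 5.41% rose and 11.9% fell in h3.3kd. In the combined line 6.17% of all tested genes rose and 12.6% fell. In whole seedlings, fewer cells of a type and less RNA per cell cannot be told apart, and the part of organ makeup in these results was not tested.

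Aliphatic glucosinolates are sulfur compounds made from methionine for defence, and several genes of their synthesis moved in opposite directions in the single lines. Of 19 listed genes tested, 6 (31.6%) were called lower for the interaction and none higher, with a median of -0.68. In h2a.z 10 of the 19 rose and 2 fell against Col, in h3.3kd 13 fell and none rose, and in the combined line 10 fell and 1 rose. Of all tested genes, 10.5% rose and 4.56% fell in h2a.z, and 5.41% rose and 11.9% fell in h3.3kd. In the combined line 6.17% of all tested genes rose and 12.6% fell. The combined line did not differ from h3.3kd by this test in 18 of the 19. Over all tested genes this contrast was called in 4.25%, so that count is no result about these genes.

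BCAT4, the aminotransferase that starts methionine chain elongation, had 0.512, 1.24 and 0.407 TPM in h3.3kd;h2a.z and 20.4, 41.3 and 43.8 in h2a.z. It had 0.234, 0.655 and 0.165 TPM in h3.3kd and 2.27, 2.22 and 1.15 in Col. The combined line overlapped with h3.3kd and stood below all h2a.z libraries, although h2a.z alone was far above Col. On loss of H2A.Z, BCAT4 differed by 0.34 ± 0.31 on the log2 scale in the h3.3kd background (adjusted p = 0.68), against 3.60 ± 0.31 with normal H3.3 (adjusted p = 2.1e-06), and the interaction was -3.27 ± 0.43 (adjusted p = 0.00088).

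IPMI1, an isopropylmalate isomerase of the same cycle, had 1.08, 1.64 and 1.52 TPM in h3.3kd;h2a.z and 34.2, 40.5 and 39.3 in h2a.z. It had 1.15, 2.94 and 1.55 in h3.3kd and 3.72, 9.31 and 3.71 in Col (interaction -2.88 ± 0.42, adjusted p = 0.002). By mean the order was as for BCAT4, with h2a.z highest and Col next, and the 2 lines with low H3.3 overlapped. The listed gene IPMI2 also rose in h2a.z, but its interaction was not called (-0.33, limma adjusted p = 0.854). CYP79F2, which turns elongated methionine into aldoximes, averaged 0.766 TPM in h3.3kd;h2a.z, 21.4 in h2a.z, 0.646 in h3.3kd and 2.53 in Col (-2.56 ± 0.41, adjusted p = 0.0035). CYP79F1 instead fell in h2a.z, to 0.587 TPM from 2.05 in Col, and its interaction was not called (0.71, adjusted p = 0.329). MYB28, the main transcription factor of the pathway, was not called (0.10, adjusted p = 0.92), with means of 4.87 TPM in h3.3kd;h2a.z, 35.4 in h2a.z, 3.22 in h3.3kd and 27.3 in Col.

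A list of glucosinolate breakdown genes, with genes of the ER body, which stores the enzymes of that breakdown, and related lectins, did not share 1 direction. Of 15 tested, 1 was called higher and 4 lower (33.3% called), with a median of -0.41. The 4 lower became 1 on leaving out h3.3kd;h2a.z 1 or h3.3kd 3, and 2 on leaving out h2a.z 2, h2a.z 3 or Col 1. The higher gene was TGG2, a myrosinase that cleaves glucosinolates. It had 11.1, 9.64 and 7.05 TPM in h3.3kd;h2a.z, 4.48, 4.85 and 4.72 in h2a.z, 4.06, 6.77 and 4.20 in h3.3kd, and 40.8, 25.5 and 23.9 in Col. Both single lines stood far below Col, and the combined line, still below Col, stood above both. The interaction was 3.19 ± 0.34 (adjusted p = 0.00012). The single folds multiplied to 0.107 TPM, close to the floor.

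ESM1, which steers glucosinolate breakdown away from nitriles, went the other way. It had 0.448, 0.786 and 0.676 TPM in h3.3kd;h2a.z, 12.3, 16 and 15.7 in h2a.z, 121.9, 128.8 and 107.8 in h3.3kd, and 207.1, 268.5 and 207.3 in Col. The 4 genotypes did not overlap, and the combined line was lowest. Against the expectation of 7.25 TPM from multiplied folds the interaction was -2.34 ± 0.22 (adjusted p = 5.8e-05). This call depends on the scale: adding differences in TPM gives an expectation of -93.5 TPM, and on the square root of TPM the value turned positive and was not called (adjusted p = 0.521; 1.04e-06 to 0.521 over the settings).

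**Figure D3:**
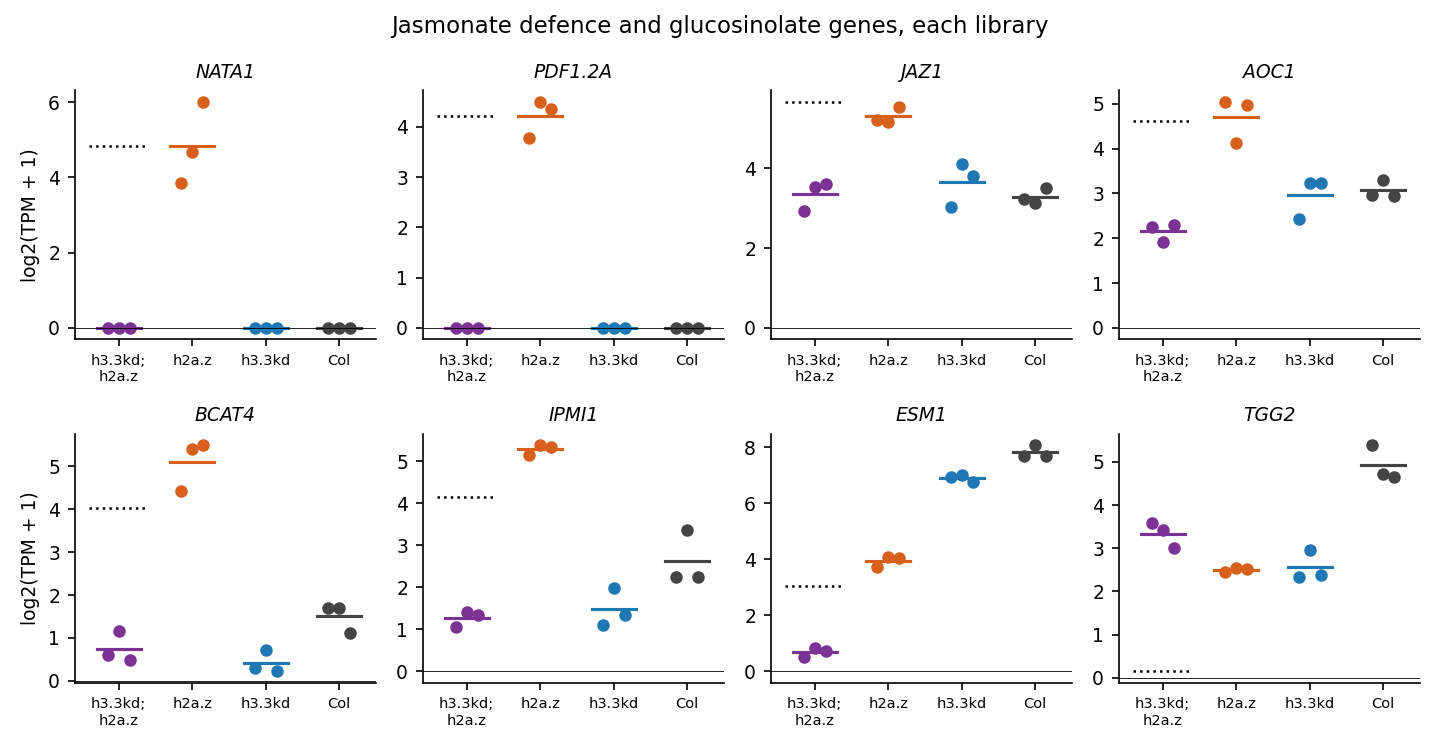
Level of 8 defence and glucosinolate genes in each library, in log2(TPM + 1), with points for libraries, coloured bars for the genotype mean (n = 3) and a dotted line over h3.3kd;h2a.z for the additive expectation. In the first 6 genes h2a.z alone is high and the combined line falls far below the dotted line; ESM1 lies below it and TGG2 above it.

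The same form was seen in transcripts outside these lists. COBL5, a COBRA-like protein of a family that acts in cell wall building, had 4.20, 4.43 and 5.71 TPM in h3.3kd;h2a.z, 41.1, 39.9 and 38.1 in h2a.z, 4.38, 11.2 and 7.66 in h3.3kd, and 12.5, 9.45 and 15.2 in Col (-2.16 ± 0.36, adjusted p = 0.0046). The h2a.z libraries stood far above the rest, and the combined line overlapped with h3.3kd. AT5G61160, annotated as an anthocyanin 5-aromatic acyltransferase, had 0.353, 1.95 and 0.137 TPM in h3.3kd;h2a.z and 34.3, 24.3 and 25.9 in h2a.z, was listed at 0 in all 3 h3.3kd libraries, and had 0.375, 0.572 and 0.872 in Col (adjusted p = 0.00057, and up to 0.193 over the settings). AT3G28320, an uncharacterized gene chosen after its values were seen, had 109.5, 76.9 and 82.7 TPM in h2a.z and was listed at 0 in the 9 other libraries. In 309 of the 369 genes called lower (83.7%), each h2a.z library was above each library of the other 3 genotypes, which held for 2521 (12.6%) of all tested genes. The h2a.z values are part of the interaction by which these genes were called, so the gap between the shares only describes the calls.

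Salicylic acid defence acts against pathogens that feed on living cells. Of 19 genes tested, 2 were called higher and 2 lower (21.1% called), with a median of -0.74 and 16 negative values. Against Col 13 rose in h2a.z, as did 10.5% of all tested genes. The 2 lower were PR2 and PR5. Their number was 3 without h3.3kd;h2a.z 2, h3.3kd 1 or Col 3, and 1 without Col 1, h3.3kd 3, h2a.z 1, h2a.z 3 or h3.3kd;h2a.z 1. PR5, a thaumatin-like protein, averaged 0.299 TPM in h3.3kd;h2a.z and 21.3 in h2a.z, was listed at 0 in all 3 libraries of h3.3kd and averaged 3.73 in Col (adjusted p = 0.013, and 0.703 at a pseudocount of 0.1; 0.00147 to 1 over all settings). The 2 higher were RPP5 and SNC1, immune receptors, which led the next group.

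A set of transcripts was low or absent in h2a.z and present in the combined line, in part near Col level. Among the 98 higher genes with a mean Col TPM of 5 or more, 22 averaged under 1 TPM in h2a.z. In the combined line 14 of those differed less than 2-fold from Col. That is a smaller share than among all tested genes, of which 9.26% differed by 2-fold or more. In 65 of the 98 (66.3%) each h2a.z library was below each library of the other 3 genotypes, which held for 748 (3.75%) of all tested genes. Here too the h2a.z values helped to call the genes, and the shares are a description. RPP5, a receptor for downy mildew, had 43.7, 45.1 and 39.3 TPM in h3.3kd;h2a.z and 1.76, 1.89 and 1.51 in h2a.z. It had 26, 53 and 30.7 in h3.3kd and 23.9, 27.3 and 32.2 in Col. The h2a.z libraries stood alone at the bottom, and the combined line overlapped with h3.3kd and lay above all Col libraries. The H3.3 effect was 4.01 ± 0.22 in h2a.z plants (adjusted p = 4.3e-08), against 0.33 ± 0.22 with normal H2A.Z (adjusted p = 0.33), and the interaction was 3.68 ± 0.31 (adjusted p = 1.6e-05).

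SNC1, in the same receptor cluster, had 88.4, 102.1 and 87 TPM in h3.3kd;h2a.z, 21.9, 26.7 and 20.1 in h2a.z, 47.6, 124.9 and 70.6 in h3.3kd, and 56, 78.5 and 81.9 in Col (1.90 ± 0.37, adjusted p = 0.013). Again h2a.z alone stood apart. RPP4, another member, was not called (1.08, adjusted p = 0.0862). The genes of this cluster are near-identical in part, so reads can be shared between them. PAI3, an enzyme of tryptophan synthesis, had 5.97, 7.51 and 5.29 TPM in h3.3kd;h2a.z, and was listed at 0 in all 3 h2a.z libraries, against 6.59 to 9.26 in h3.3kd and 4.09 to 8.72 in Col (adjusted p = 0.0012).

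Some of the clearest cases have no symbol in the reference names and were chosen after their values were seen. AT4G19500, annotated as a nucleoside-triphosphatase and transmembrane receptor, had 65.5, 68.6 and 62.5 TPM in h3.3kd;h2a.z and 0, 0.552 and 0.276 in h2a.z. It had 48.1, 88 and 51.8 in h3.3kd and 53.6, 55.5 and 60.5 in Col (5.63 ± 0.30, adjusted p = 1.9e-07). The 9 libraries outside h2a.z stood more than an order of magnitude above it. Its neighbour AT4G19510, annotated as a TIR-NBS-LRR resistance protein, averaged 37.1 TPM in h3.3kd;h2a.z, 0.519 in h2a.z, 51.6 in h3.3kd and 30.9 in Col (4.06 ± 0.39, adjusted p = 5.8e-05).

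Among genes with other roles, RPL12-C, a ribosomal protein of the chloroplast, had 1351, 1501 and 1486 TPM in h3.3kd;h2a.z, 397.5, 379.3 and 361.1 in h2a.z, 1380.0, 1408 and 1581 in h3.3kd, and 1011, 1664 and 1508 in Col (1.84 ± 0.23, adjusted p = 0.00055). HSP81-2, a cytosolic HSP90 chaperone, had 224.8, 249.7 and 239 TPM in h3.3kd;h2a.z, 61.1, 78.1 and 84.4 in h2a.z, 181.8, 243.2 and 190 in h3.3kd, and 156.8, 246.8 and 185.9 in Col (1.60 ± 0.24, adjusted p = 0.0025). In both genes only h2a.z stood apart. They too were chosen after their values were seen.

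Genes called higher often lay near each other on a chromosome. Of the 98 with a mean Col TPM of 5 or more, 36 (36.7%) had another of the 98 within 10 tested genes, while 8.21% of the 19832 tested genes placed in order by locus identifier had one of the 98 that near. They formed 16 runs, of which the longest held 5 genes: AT4G16745, AT4G16800, SNC1, RPP5 and AT4G16957. The 140 lower genes of this class had 12 (8.57%) near another, against 13.4% of those 19832. Among lower genes under 1 TPM in Col, 50 of 155 (32.3%) had a near neighbour called lower, against 13.2%. Genes that lie near each other include tandem copies that share sequence. These shares carry no test.

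PGAZAT, a polygalacturonase that loosens pectin where cells separate, exceeded Col in the combined line. It had 91, 93.3 and 58.6 TPM in h3.3kd;h2a.z, 3.32, 2.04 and 1.56 in h2a.z, 7.66, 7.46 and 8.81 in h3.3kd, and 11.8, 6.96 and 18.9 in Col. The h2a.z libraries were lowest, h3.3kd lay within the range of Col, and the combined line lay above all 9 other libraries. Loss of H2A.Z raised it by 3.16 ± 0.30 in the h3.3kd background (adjusted p = 1.6e-05) and lowered it with normal H3.3 (-1.97 ± 0.30, adjusted p = 0.00036). The interaction was 5.14 ± 0.42 (adjusted p = 1.4e-05). GH9B15, a glycosyl hydrolase of the endoglucanase family, was the 1 higher gene with a Col mean under 1 TPM. It had 10.5, 14.7 and 3.71 TPM in h3.3kd;h2a.z, was listed at 0 in all 3 h2a.z libraries, and stood at 0.823 to 1.29 in h3.3kd and 0.354 to 1.06 in Col (adjusted p = 0.0042).

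In a smaller group, a loss seen in h3.3kd was absent from the combined line. DIN2, a beta-glucosidase induced by darkness and sugar shortage, had 22.9, 20.5 and 25 TPM in h3.3kd;h2a.z, 13.8, 13.4 and 11.8 in h2a.z, 3.72, 3.02 and 4.97 in h3.3kd, and 19.4, 16 and 31.6 in Col. The combined line overlapped with Col, h2a.z lay below both, and h3.3kd was lowest. Lowering H3.3 raised it by 0.77 ± 0.23 in h2a.z plants (adjusted p = 0.022) and changed it by -2.21 ± 0.23 on the log2 scale with normal H2A.Z (adjusted p = 2.9e-05). The interaction was 2.98 ± 0.32 (adjusted p = 0.00013).

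RDR6, the RNA polymerase that makes double-stranded RNA for gene silencing, had 39.7, 42.1 and 41.7 TPM in h3.3kd;h2a.z, 28.1, 33.4 and 28.9 in h2a.z, 7.43, 20.5 and 10.8 in h3.3kd, and 35.2, 44.4 and 37.4 in Col. The h3.3kd libraries lay below all others (interaction 2.07 ± 0.35, adjusted p = 0.005). XTH31, a wall enzyme acting on xyloglucan, had 31.6 to 33.4 TPM in h3.3kd;h2a.z, 22.8 to 33.2 in h2a.z, 7.65 to 13.4 in h3.3kd and 27.7 to 42.9 in Col (1.88 ± 0.30, adjusted p = 0.0031). Again h3.3kd was the genotype that stood apart.

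**Figure D4:**
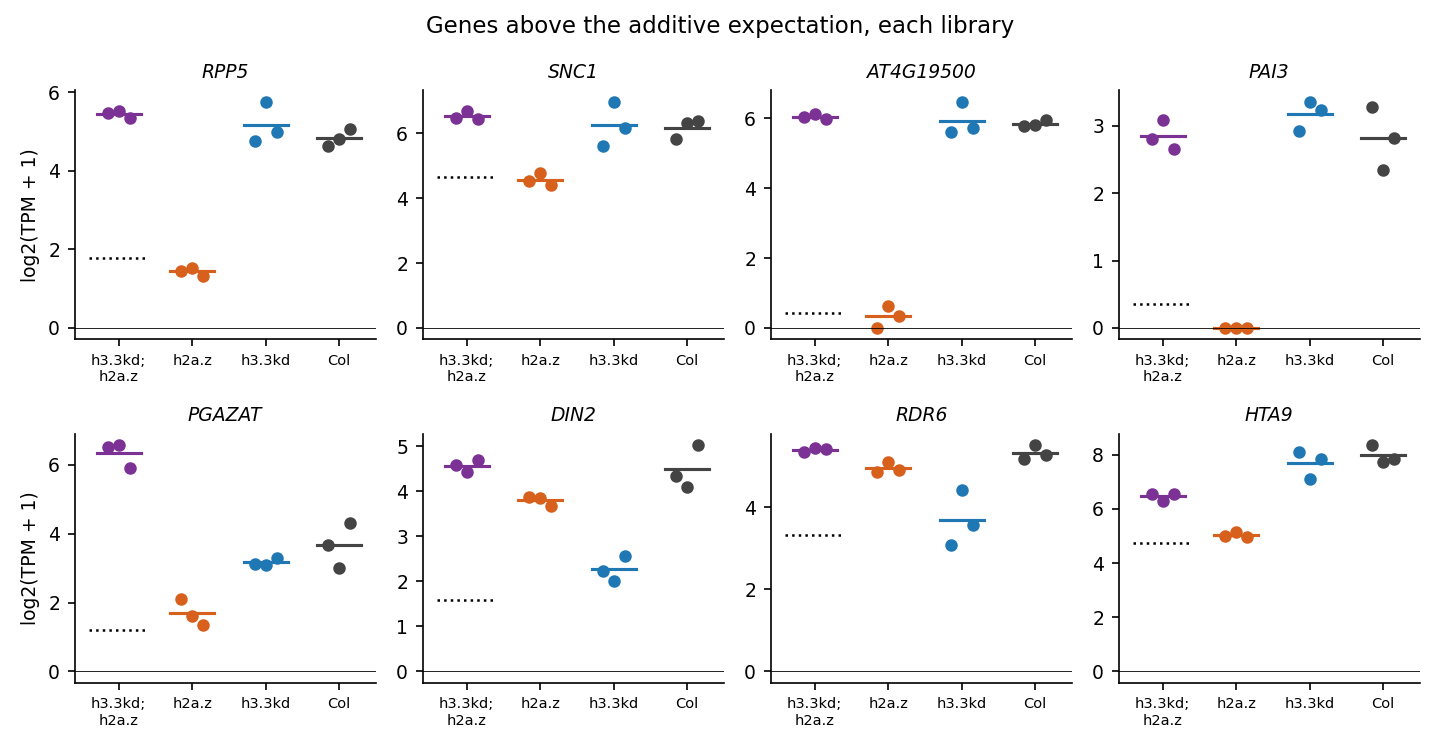
Level of 8 genes called above the additive expectation, in log2(TPM + 1), with points for libraries, coloured bars for the genotype mean (n = 3) and a dotted line over h3.3kd;h2a.z for the expectation. RPP5, SNC1, AT4G19500 and PAI3 are low in h2a.z alone, DIN2 and RDR6 are lowest in h3.3kd, PGAZAT is highest in the combined line, and HTA9 is low in both lines labelled h2a.z.

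In a further group both single lines changed in the same direction. G6PD4, a glucose-6-phosphate dehydrogenase, had 31.3, 29.4 and 37 TPM in h3.3kd;h2a.z, 87.3, 83.6 and 71.9 in h2a.z, 26.7, 38.9 and 37.8 in h3.3kd, and 18.1, 19.2 and 19.4 in Col. Both single lines lay above Col, and the combined line overlapped with h3.3kd (-2.10 ± 0.22, adjusted p = 0.00012). Among the 48 genes of this pattern with a mean Col TPM of 5 or more, the combined line was within 2-fold of h3.3kd in 23 of the 25 called higher and 21 of the 23 called lower. Over all tested genes, 3.53% differed by 2-fold or more between the combined line and h3.3kd. Nearness to h3.3kd is thus no trait of this pattern.

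PRX52, a class III peroxidase of the cell wall, had 0.485, 2.04 and 1.06 TPM in h3.3kd;h2a.z, 7.65, 11.1 and 23.5 in h2a.z, 0.865, 2.13 and 1.98 in h3.3kd, and 0.108, 0 and 0 in Col (-4.03 ± 0.51, adjusted p = 0.00057). The h2a.z libraries stood above the rest, and the combined line overlapped with h3.3kd.

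AGP30, an arabinogalactan protein known from roots, fell in both single lines to levels near 0. It had 0.611, 0.403 and 0.264 TPM in h3.3kd;h2a.z, 0.128, 0 and 0 in h2a.z, 0.171, 2.05 and 1.38 in h3.3kd, and 5.11, 5.57 and 8.09 in Col (2.26 ± 0.44, adjusted p = 0.013). Its additive expectation was -0.703 TPM, below what any transcript can reach.

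XTH18, another xyloglucan enzyme, belongs to the genes that the single lines moved in opposite directions. It had 3.77, 8.27 and 8.46 TPM in h3.3kd;h2a.z, 84.2, 77.6 and 69.2 in h2a.z, 5.19, 9.33 and 7.98 in h3.3kd, and 17.6, 12.4 and 21.4 in Col (-2.29 ± 0.39, adjusted p = 0.0049). Of 23 lower genes with this pattern and a mean Col TPM of 5 or more, the combined line was within 2-fold of h3.3kd in 22 and within 2-fold of Col in 9. Over all tested genes, the combined line differed by 2-fold or more from h3.3kd in 3.53% and from Col in 9.26%. The count of 22 is thus near the share of all genes. HMGA, a DNA-binding protein of chromatin, and CER1, which makes wax alkanes, were called the other way and were chosen after their values were seen. HMGA had 263.6, 232.8 and 258.4 TPM in h3.3kd;h2a.z, 81, 74.7 and 85.6 in h2a.z, 294.5, 315 and 310.6 in h3.3kd, and 203.6, 179.2 and 186.3 in Col (0.94 ± 0.15, adjusted p = 0.0037). CER1 had 38.6 to 44.8 TPM in h3.3kd;h2a.z, 5.67 to 8.58 in h2a.z, 27.5 to 38.5 in h3.3kd and 16.8 to 25.7 in Col (1.83 ± 0.27, adjusted p = 0.002).

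In 14 genes the combined line went further than the single changes multiplied, 12 of them lower and 2 higher. When TPM differences were added, 9 of the 12 lower kept their sign, the other 3 being ESM1, JAL33 and AOC2. PPC2, a phosphoenolpyruvate carboxylase, was one of the 2 higher and was chosen after its values were seen. It had 1286, 1296 and 1127 TPM in h3.3kd;h2a.z, 406.2, 410.2 and 419.8 in h2a.z, 182, 292.4 and 183 in h3.3kd, and 160.8, 229.3 and 192.4 in Col. The combined line stood far above h2a.z, and h3.3kd overlapped with Col (1.43 ± 0.25, adjusted p = 0.0056).

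LTI30, a dehydrin that protects cells in cold and drought, had 5.15, 6.08 and 6.35 TPM in h3.3kd;h2a.z, 26.8, 26.3 and 25.4 in h2a.z, 20.5, 15.3 and 24.4 in h3.3kd, and 37.5, 29.2 and 33.7 in Col. The combined line stood below all other libraries (-1.26 ± 0.25, adjusted p = 0.013, and 0.0887 on the square root of TPM; 3.81e-05 to 1 over all settings). ANNAT2, an annexin that binds membranes with calcium, was changed in the combined line alone, with 24.6, 23.3 and 29.9 TPM in h3.3kd;h2a.z, 68.7, 107.1 and 80.7 in h2a.z, 58.8, 82.8 and 92.1 in h3.3kd, and 69, 91.8 and 90.6 in Col (-1.55 ± 0.28, adjusted p = 0.007).

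The cruciferin seed storage gene CRC shows how far a call can rest on the scale. It had 153.6, 64 and 54.4 TPM in h3.3kd;h2a.z, 46.5, 15.5 and 50.7 in h2a.z, 23.5, 15 and 32.7 in h3.3kd, and 0.0962, 0 and 0 in Col. The combined line lay above all libraries of the single lines, and yet the gene was called lower, because its folds over a Col level near 0 multiply to an expectation of 785.8 TPM (-3.26 ± 0.60, adjusted p = 0.009). Adding the differences gives 61.3 TPM, and on the square root of TPM the call ended (adjusted p = 0.765; 0.000334 to 0.765 over the settings). Of all 496 called genes, 7 had the opposite sign when TPM differences were added.

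Lists of genes known for the response to warmth had shares of calls near the 2.49% of all tested genes, so the counts are no result about these genes. Of 25 regulators of thermomorphogenesis, the growth response to warmth, none was called by limma and 0 had an unadjusted p under 0.05, with interactions from -0.50 to 0.64 and a median of 0.05. PIF4, the transcription factor at the centre of that response, had 19.1, 19.5 and 17.9 TPM in h3.3kd;h2a.z, 29.6, 17.8 and 16.1 in h2a.z, 37, 32.1 and 40.8 in h3.3kd, and 35.7, 30.1 and 45.1 in Col. The lines labelled h2a.z overlapped each other below the lines with normal H2A.Z, which also overlapped (-0.11 ± 0.29, adjusted p = 0.92).

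Of 28 growth genes that warmth induces, 1, the expansin gene EXPA1, was called higher (3.57%), though not with each library left out in turn. In this list 6 had an unadjusted p under 0.05, and the median was 0.15. In h3.3kd 13 fell against Col and in the combined line 13 fell. YUC8, which makes auxin, had 8.08, 13.3 and 14.1 TPM in h3.3kd;h2a.z, 16.1, 18.7 and 23.6 in h2a.z, 14.8, 12.9 and 12.2 in h3.3kd, and 26.3, 27.5 and 20 in Col (0.13 ± 0.30, adjusted p = 0.90). IAA29, an auxin-induced repressor, averaged 13.3 TPM in h3.3kd;h2a.z, 29.1 in h2a.z, 19.4 in h3.3kd and 68 in Col (0.65 ± 0.40, adjusted p = 0.54), and IAA19 gave 0.17 ± 0.53 (adjusted p = 0.93).

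In the heat shock list none of 24 was called, 7 had an unadjusted p under 0.05, and the median was -0.31. In h2a.z 10 of the 24 rose against Col and 1 fell, and 9 fell in the combined line against h2a.z and 1 rose. Of all tested genes, 10.5% rose and 4.56% fell in the former contrast, and 5.34% rose and 19.3% fell in the latter. HSP70-4, a chaperone, had 49.9, 53 and 50.3 TPM in h3.3kd;h2a.z, 72.1, 89.6 and 102.4 in h2a.z, 41.1, 37.4 and 43.3 in h3.3kd, and 42.9, 49.7 and 44 in Col. The h2a.z libraries stood above the rest, the interaction was -0.60 ± 0.19 and it missed the threshold (adjusted p = 0.15). With array weights, where 1894 of all tested genes (9.5%) were lower, 8 of the 24 were called lower, HSP70-4 among them (adjusted p = 0.00316; 0.00316 to 1 over all settings).

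Shares of calls in the other lists stand beside the 2.49% of all tested genes. Among 14 phosphate starvation genes 2 (GDPD1 and ACP5; 14.3%) were lower and all 14 values were negative (median -0.44), and among 20 genes of abscisic acid, drought and cold 2 (COR15B and LTI30; 10%) were lower (median -0.68). In 16 root markers IRT1 and FRO2 (12.5%), and in 19 seed markers CRC and CRA1 (10.5%), were lower. Of these 8 genes, LTI30 and CRC alone held their call with each library left out in turn. In 25 photosynthesis genes 1, RBCS1B, was higher (4.0%; median 0.16), a call that did not hold in all of those fits. By limma 0 were called among 16 clock genes (1 with an unadjusted p under 0.05), 11 flowering genes (1), 19 DNA replication and cell cycle genes (1), 20 other histone genes (3), 19 genes of the histone variant machinery (3), and 8 flavonoid and 2 floral genes (0). Over the 20 lists, 37 of 339 genes tested were called (10.9%), but the lists were chosen with earlier results of these data known.

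**Figure D5:**
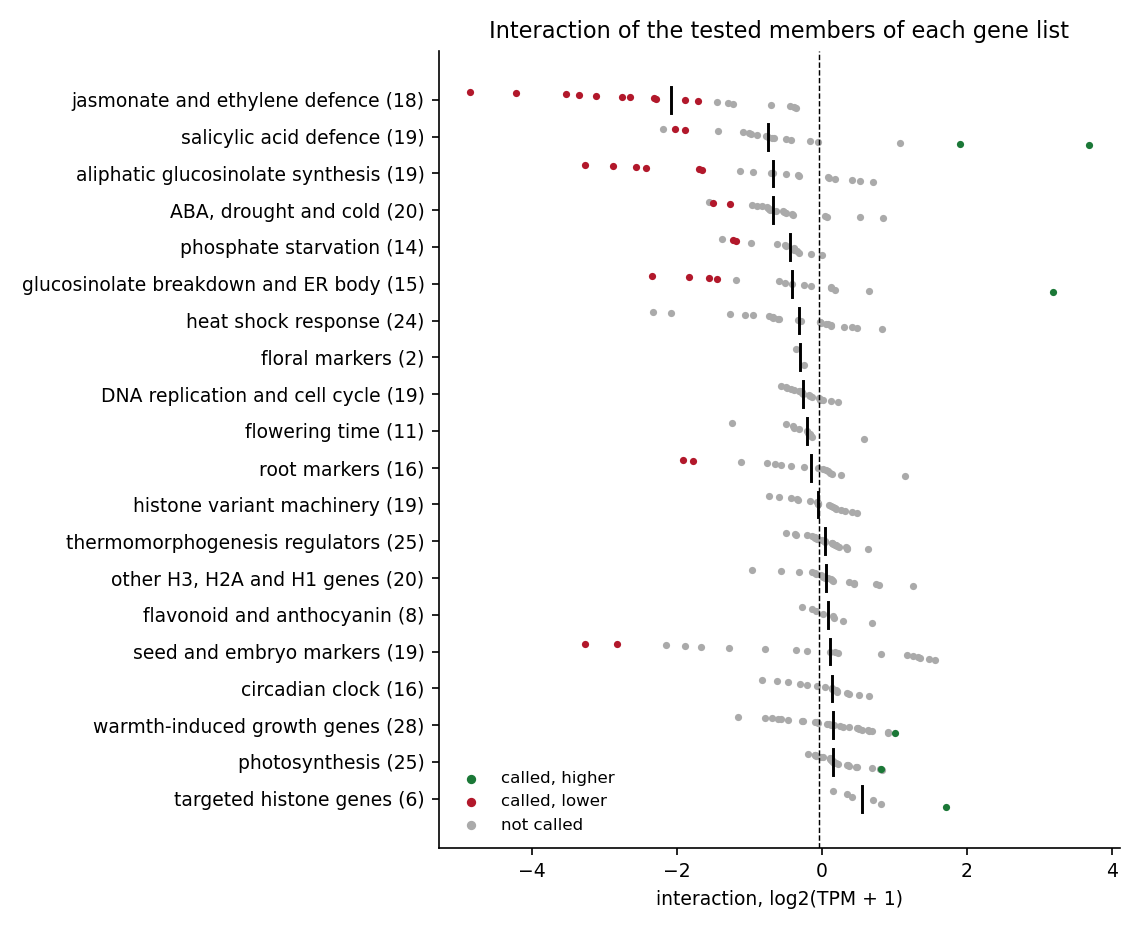
Interaction in log2(TPM + 1) of each tested member of 20 gene lists (number tested in brackets), with called genes in colour, a black bar at each list's median and a dashed line at the median of all tested genes, -0.043. The jasmonate and ethylene defence list lies farthest to the left, with all 18 members below 0, and the thermomorphogenesis regulators lie close around 0 with no call.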

How the data were processed

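RNA of whole Arabidopsis seedlings was sequenced in 12 libraries, 3 for each of 4 genotypes. The deposited values are TPM in a single table made by the authors, a column for each library; per the submitters' processing notes, fastp 0.20.1, HISAT2, HTSeq 0.11.2, DESeq2 1.26.0 and the TAIR10 build were used, but their roles and settings were not stated. TPM holds no depth, so counting intervals cannot be given, and no count model was used.

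A gene was kept where 3 libraries or more reached 1 TPM (19937 of 23387). log2(TPM + 1) was fitted in limma 3.58.1 (R 4.3.3) with 1 mean per genotype and an intensity trend, leaving 8 residual degrees of freedom. P-values were adjusted by the Benjamini-Hochberg method over all tested genes, and a call means an adjusted p under 0.05. Genes were classed by mean Col TPM (under 1, 1 to 5, 5 or more). No 2 columns were identical. Deviations from the genotype mean correlated at 0.314, 0.221 and 0.115 between same-numbered libraries of h3.3kd and Col. All were over 0.1, and not so in every pair of any other 2 genotypes, so the numbers were taken to pair these 2 genotypes. Col 3 correlated as strongly with h3.3kd 2 (0.116) as with h3.3kd 3, so the third pair is uncertain. The labels name no shared batch. The fit was run on simulated data without single-line changes and with interactions placed only in genes well above 0. That run does not cover genes near 0 or genes changed in the single lines. Symbols came from RefSeq names, matched for 19832 tested genes, and HTR4, HTR5 and HTR8 are the usual names of their loci.

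Genes were named by rule: the 6 targeted histone genes and 5 warmth genes, the largest interactions each way among well expressed genes, among genes near 0 in Col and in each pattern, and from every list the 3 called genes, or fewer, of lowest adjusted p. Others are marked as chosen after their values were seen or given as list members. The members, lists and tests were chosen with earlier results of these data known. Alternatives were other pseudocounts (0.1 and 0.5), the square root, other filters and normalizations, no trend, array weights, a test against a 2-fold minimum, a replicate block over all genotypes and, chosen after seeing the data, one within h3.3kd and Col, each library left out in turn, and Col 1 and h3.3kd 2 left out together.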

Additional observations from a re-analysis of the deposited data

Results flagged for a closer look

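The interaction test compares the effect of 1 change between 2 backgrounds, so each call is a difference between groups that was itself tested. It gave 127 genes higher and 369 lower. In 5 genes named by rule, 1 of the 2 changes was called in opposite directions in its 2 backgrounds. The interaction on the log2 scale was 5.14 for PGAZAT, 3.19 for TGG2, 2.98 for DIN2, -2.10 for G6PD4 and -4.03 for PRX52. Groups of 3 libraries were not tested for an outlying sample.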

How the results depend on the processing

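Calls depended on the low end of the scale and on single libraries. At a pseudocount of 0.1 there were 177 lower genes, 92 with a Col mean of 5 or more and 47 under 1; on the square root of TPM 212 were lower at 5 or more. With no filter 9 were higher and 240 lower under 1 TPM in Col, and with a minimum TPM of 5 there were 242 lower in all, and 0 higher and 51 lower under 1. Under quantile normalization, and also without the trend, 2 were higher under 1. With array weights, whose fit warned of incomplete convergence, 907 were higher and 1894 lower (767 and 1114 at 5 or more, 7 and 371 under 1), and the H2A.Z effect was called in 5471 (h3.3kd) and 5516 genes (Col background), the H3.3 effect in 9173 (h2a.z) and 6817 genes (Col background). Against a 2-fold minimum 18 were higher and 27 lower (16 and 2 at 5 or more, 0 and 21 under 1), with 62, 329, 390 and 99 genes for the same 4 effects; calls of most named genes ended there. Without Col 1 and h3.3kd 2 together 311 were higher and 557 lower (290 and 278 at 5 or more), with 2239 genes for the H2A.Z effect in h3.3kd and 7389 for the H3.3 effect in h2a.z. With each library left out in turn, higher genes numbered 72 to 208 and lower 214 to 552, at 5 or more 58 to 184 and 62 to 291, and under 1 TPM 1 to 2 and 103 to 158; the 4 effects ranged over 421 to 1545, 2011 to 3947, 3468 to 6276 and 2177 to 4424 genes. The share of calls that were higher was 25.6%, against 40% with the 2-fold minimum and 35.8% without Col 1 and h3.3kd 2. With the replicate number as a block of h3.3kd and Col alone, added after seeing the data, 229 were higher and 611 lower (193 and 340 at 5 or more), the H2A.Z effect was called in 1414 genes in h3.3kd, and no other of these counts moved by over 1.5 times. Over all 4 genotypes numbers did not pair the libraries (6 of 18 same-number correlations of deviations over 0.1, and 3 of 36 between other numbers), and a replicate block of all 12 called 132 higher and 376 lower. ESM1 turned to 1.105 on the square root (adjusted p = 0.521). Values near 0 changed sign: PIF4 was 0.017 under quantile normalization, 0.006 with array weights and from -0.275 to 0.145 with 1 library left out; IAA19 was -0.331 with array weights, -0.543 without Col 1 and h3.3kd 2, and from -0.244 to 0.605 with 1 library left out; likewise HTR8 ran from -0.002 to 0.281 and YUC8 from -0.001 to 0.364. Of 1429 values of single genes under alternatives, 1242 kept direction and side of the threshold, 175 lost the call, 1 gained it and 11 changed sign. The causes were not tested. TPM gives no depth, so which low levels were measurable is unknown.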
